A study of Homo sapiens with 6 samples.

Results

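The collagen hydroxylases are the enzymes of the endoplasmic reticulum that add hydroxyl groups to prolines and lysines of new collagen chains, together with 1 partner of the same family. They were taken as a fixed list of 10 genes by symbol: the prolyl 4-hydroxylase subunits P4HA1, P4HA2 and P4HA3, the lysyl hydroxylases PLOD1, PLOD2 and PLOD3, and the prolyl 3-hydroxylase family P3H1, P3H2, P3H3 and P3H4. Each symbol matched 1 of the 60675 gene identifiers in the counts, and 9 of the 10 genes had enough reads to test, as did 16353 genes in all.

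RNA-seq was performed on A2058, an established human cell line that was derived from metastatic melanoma. The treated group was 3 wells given vitamin C at 100 µM for 48 h, the dose and time in the sample labels, and the 3 control wells had medium without vitamin C. The protocol text of the labels names 50 µM sodium ascorbate instead, and the methods of the study give the same dose as the sample labels, with fresh medium each day before the vitamin C was added. All wells were of this 1 line, with no other labelled treatment, so p-values measure the spread between wells of 1 experiment.

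These enzymes belong to the same superfamily as the TET dioxygenases. They need iron, 2-oxoglutarate and oxygen, and vitamin C returns the iron at the active site to its working state, which is why collagen is poorly hydroxylated in scurvy. Hydroxyproline made by prolyl 4-hydroxylase keeps the collagen triple helix stable at body temperature. Hydroxylysine carries sugars and forms the crosslinks between collagen molecules, and 3-hydroxyproline is found at few sites of a chain. Transcripts of P4HA1, P4HA2, PLOD1 and PLOD2 are known to be induced by hypoxia-inducible factors (HIF) in other cells.

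The total was 25672689, 32549362 and 20944956 counts in vitamin C replicates 1, 2 and 3, against 41884588, 26996891 and 16248869 counts in control replicates 1, 2 and 3. Vitamin C replicate 3 lay at -22.5 on the second principal component, against 14.5 and 17.5 for the other vitamin C wells, and the control wells ran from -16.1 to 9.81. Mitochondrial genes took 0.476% of its counts, against 0.571% to 0.744% in the other 5 libraries. Values without this library are given where it changed the call of a hydroxylase, partner, collagen chain or HIF target. Markers of the melanocyte lineage were present in every well, and the 8 markers summed to 2345 to 2470 CPM with vitamin C and 2533 to 2646 CPM in control wells, with 3 higher and 1 lower, or 50.0% called against 11.2% of all genes tested. The melanosome genes MLANA, PMEL and TYR were higher (log2 fold changes 3.38, 0.73 and 0.29), MLANA at 14.6 to 15.9 CPM with vitamin C and 1.22 to 1.79 CPM in control wells, and DCT was lower (-0.30), while SOX10, the lineage factor of neural crest cells, had 91.7, 100.3 and 116 CPM (counts scaled to library size) with vitamin C and 102, 99.7 and 104 CPM in control wells. The summed level of 10 fibroblast markers was 101 to 118 CPM in vitamin C wells and 60.0 to 68.9 CPM in control wells. Of these, 7 could be tested and 4 were higher, or 57.1% called against 11.2% of all genes tested. LUM made up most of the sum, with 84.5 to 98.4 CPM in vitamin C wells and 48.9 to 55.2 CPM in control wells (log2 fold change 0.83), and POSTN, PDGFRB and COL3A1 were the others that were higher (1.63, 1.60 and 0.76). COL1A1 did not pass, at 0.452 ± 0.154 CPM in vitamin C wells and 0.470 ± 0.146 CPM in control wells (SD, n = 3 each), and THY1 and FBLN1 had at most 4 counts in any vitamin C library and at most 7 in any control library. The markers named here were picked after their values were seen. Of the 8 leukocyte markers, summed at 8.31 to 9.94 CPM with vitamin C and 4.51 to 5.92 CPM in control wells, CD53, TYROBP and CD52 had at most 1 count in any library. Of the 2 leukocyte markers tested, 1 was higher, or 50.0% called against 11.2% of all genes tested. The sums ran from 16.2 to 17.4 CPM with vitamin C and from 7.82 to 9.16 CPM in control wells for 6 endothelial markers. Of these, 3 were tested and 2, PECAM1 and KDR, were higher (log2 fold changes 1.60 and 0.87), or 66.7% called against 11.2%. For 7 epithelial markers the sums ran from 13.3 to 14.5 CPM with vitamin C and from 11.3 to 12.0 CPM in control wells. By edgeR, 0 of the 3 epithelial markers tested were called, or 0% against 11.2% (1 higher at an unadjusted p under 0.05, 0 by DESeq2 and by limma-voom). The part of these markers in the results below was not tested.

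Before the values, the start regions of the genes with the clearest changes are shown, because P4HA1 and PLOD2 moved in opposite directions and both are known as HIF targets. The sequences are RefSeq windows of GRCh38.p14 from 250 bases before to 50 bases after the start of the gene, read 5′ to 3′ on the strand of the gene. Capitals mark the core of the hypoxia response element, searched as ACGTG or GCGTG on both strands. The P4HA1 window is chr10:73096817-73097116 and the PLOD2 window is chr3:146161135-146161434, both on the minus strand. The RefSeq start of PLOD2 lies inside the span that GENCODE 29 gives the gene.
P4HA1: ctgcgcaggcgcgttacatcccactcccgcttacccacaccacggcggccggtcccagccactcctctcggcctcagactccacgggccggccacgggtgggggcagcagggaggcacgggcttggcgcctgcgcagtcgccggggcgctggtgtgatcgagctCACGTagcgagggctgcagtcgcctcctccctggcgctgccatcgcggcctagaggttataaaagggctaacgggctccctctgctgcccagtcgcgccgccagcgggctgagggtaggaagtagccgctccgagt
PLOD2: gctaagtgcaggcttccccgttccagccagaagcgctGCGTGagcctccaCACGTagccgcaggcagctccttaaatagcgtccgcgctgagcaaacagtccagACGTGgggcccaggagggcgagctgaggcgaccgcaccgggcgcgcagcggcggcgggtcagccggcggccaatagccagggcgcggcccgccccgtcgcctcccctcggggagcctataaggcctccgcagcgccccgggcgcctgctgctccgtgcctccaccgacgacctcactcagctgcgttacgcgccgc
The P4HA1 window held 1 ACGTG match, which begins 86 bases before the start. The PLOD2 window held 2 ACGTG matches, 200 and 146 bases before the start, and 1 GCGTG match 213 bases before it. Of the 10 genes, 8 had a window in the table, and 3 of them (P4HA1, PLOD2 and P3H2) held ACGTG. Matches to GCGTG were found in 4 (PLOD1, PLOD2, P3H1 and P3H2). The match is common: 21.4% of 35116 windows held ACGTG, 36.5% held GCGTG and 48.4% held either. In 1 of the 2 windows of P3H2, the ACGTG matches on the 2 strands overlap. The windows of P4HA2, PLOD3 and P3H3 held neither motif, which says only that these letters are not in these windows.

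The question of the comparison was whether vitamin C, a cofactor of these enzymes, also changed their transcripts. P4HA1, the main catalytic subunit of collagen prolyl 4-hydroxylase, fell by 19.7% and PLOD2, the lysyl hydroxylase that acts on the ends of the collagen chain, was 13.6% higher. P3H4, a family member without known catalytic activity, fell by 12.5%, with a p-value just under the threshold. The other 6 genes tested did not pass. Adjusted p-values are from the quasi-likelihood test of edgeR, with Benjamini-Hochberg adjustment over the 16353 genes. At an adjusted p under 0.05, 1 of the 9 was higher, against 6.09% of all genes tested, and 2 were lower, against 5.09%, so 3 were called in either direction, against 11.2%. DESeq2 called P4HA1 and PLOD2, 2 of the 9, against 11.3% of the genes to which it gave an adjusted p. The median log2 fold change was -0.10 over the 9 genes and 0.00 over all genes tested.

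**Figure D1:**
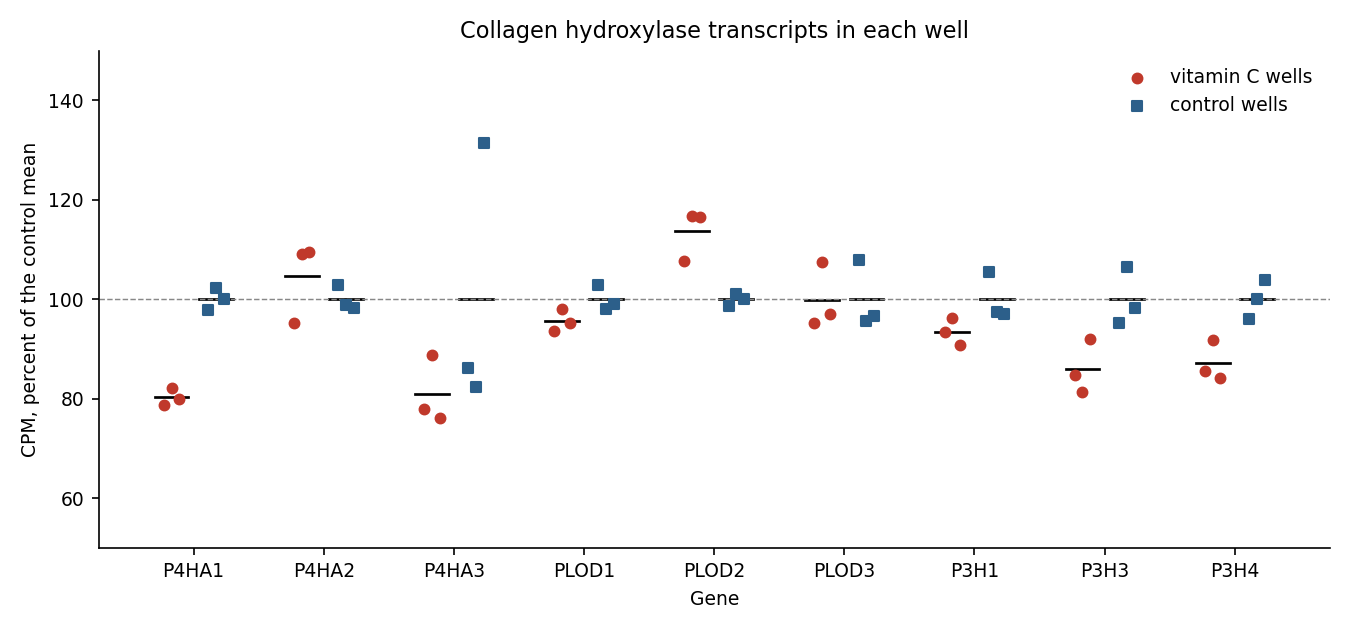
CPM of the 9 collagen hydroxylase genes tested, as a percent of the control mean of the same gene (y axis), for each of the 3 vitamin C wells (red circles) and 3 control wells (blue squares), with black lines at the group means. The vitamin C wells lie below all control wells for P4HA1, P3H1, P3H3 and P3H4 and above them for PLOD2.

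The alpha subunits of prolyl 4-hydroxylase carry the active site and pair with protein disulfide isomerase, encoded by P4HB. P4HA1 had 254, 265 and 259 CPM in vitamin C replicates 1, 2 and 3, against 316, 330 and 323 CPM in control replicates 1, 2 and 3. All vitamin C wells were below all control wells, with standard deviations of 5.53 and 7.10 CPM around means of 259.5 and 323 CPM. The counts behind these values were 6502, 8732 and 5420 with vitamin C and 13166, 8872 and 5227 in control wells, in libraries of different depth. The log2 fold change was -0.32 (standard error 0.0427, 95% confidence interval -0.41 to -0.22, edgeR adjusted p = 0.00034), rank 204 of the 16353 genes by p. In such bulk RNA, less transcript per cell and fewer cells with the transcript cannot be told apart. P4HA1 was called in each of the 14 alternative analyses, with a log2 fold change between -0.33 and -0.30. In GENCODE 29 (GRCh38) the gene spans chr10:73007217-73096974, minus strand, and 1.52% of its exon bases overlap an antisense gene, AL731563.2, which had 0.456 to 1.91 CPM in vitamin C wells and 0.744 to 1.79 CPM in control wells.

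P4HA2, the alternative catalytic subunit, did not pass. It had 58.0, 66.4 and 66.5 CPM with vitamin C, against 62.6, 60.2 and 59.7 CPM in control wells, and the groups overlapped. The log2 fold change was 0.06 (95% confidence interval -0.07 to 0.20, edgeR adjusted p = 0.58), an interval that does not reach the estimate for P4HA1. P4HA3, the third catalytic subunit, had few reads, with 45, 66 and 36 counts in vitamin C wells and 81, 50 and 48 counts in control wells. Its levels were 1.76, 2.01 and 1.72 CPM with vitamin C and 1.94, 1.86 and 2.97 CPM in control wells, where replicate 3 stood above the rest. The interval of its log2 fold change ran from -0.72 to 0.23, so a change of the size seen for P4HA1 was not detectable at this depth. Without control replicate 3 the log2 fold change was -0.05. On the opposite strand, 6.45% of the P4HA2 exon bases overlap P4HA2-AS1 and 5.09% of the P4HA3 exon bases overlap PPME1 or P4HA3-AS1. P4HA2-AS1 and P4HA3-AS1 had at most 0.334 and 0.143 CPM in any well, while PPME1 had 56.5 to 57.5 CPM in vitamin C wells and 57.8 to 61.0 CPM in control wells (log2 fold change -0.06).

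The lysyl hydroxylases differ in the lysines they act on. PLOD2 acts on lysines in the telopeptides, which become stable crosslinks, PLOD1 on lysines of the triple helix, and PLOD3 also adds sugars to hydroxylysine. PLOD2 had 457, 496 and 495 CPM in vitamin C wells, against 420, 430 and 425 CPM in control wells. Every vitamin C well was above every control well, and vitamin C replicate 1 was the nearest to them. The log2 fold change was 0.18 (standard error 0.0450, 95% confidence interval 0.09 to 0.28, edgeR adjusted p = 0.018), rank 1046 by p. The call was lost when any 1 control well or vitamin C replicate 2 was left out, with an adjusted p of 0.065 to 0.075 from edgeR's quasi-likelihood test and a log2 fold change of 0.17 to 0.19. It was kept without vitamin C replicate 3 (log2 fold change 0.17). The gene spans chr3:146069440-146163653, minus strand, and no exon base overlaps another gene.

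PLOD1 had 274, 288 and 279 CPM with vitamin C and 302, 287 and 290 CPM in control wells. The groups touched at vitamin C replicate 2 and control replicate 2. Its log2 fold change was -0.06 (95% confidence interval -0.16 to 0.03, edgeR adjusted p = 0.39), which leaves out the estimate for PLOD2. For PLOD3, 196, 222 and 200 CPM were measured with vitamin C, against 222, 197 and 199 CPM in control wells, so 1 well of each group was high. Its log2 fold change was 0.00 (95% confidence interval -0.13 to 0.13), and 7.57% of its exon bases overlap ZNHIT1 on the opposite strand, which had 54.5 to 58.2 CPM with vitamin C and 54.8 to 62.1 CPM in control wells. The interval limits any change of PLOD3 to between -8.63% and 9.14% at 95% confidence.

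In the prolyl 3-hydroxylase family, P3H1 works in a complex with CRTAP and the cyclophilin PPIB on fibrillar collagen. P3H1 had 60.6, 62.4 and 58.9 CPM in vitamin C wells and 68.5, 63.2 and 62.9 CPM in control wells. The groups did not overlap, but the nearest wells were 62.4 and 62.9 CPM, and the gene did not pass (log2 fold change -0.10, 95% confidence interval -0.22 to 0.02, edgeR adjusted p = 0.30). P3H2, which in other cells acts on basement membrane collagen, was close to absent: 0, 3 and 3 counts with vitamin C and 2, 0 and 0 counts in control wells. This is under the filter on low counts, and no fold is given.

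P3H3 and P3H4 are known in mouse to form a complex with lysyl hydroxylase 1, the product of PLOD1, and with cyclophilin B. P3H4 had 52.7, 56.5 and 51.8 CPM with vitamin C, against 59.1, 61.6 and 63.9 CPM in control wells, with no overlap. The log2 fold change was -0.19 (standard error 0.0579, 95% confidence interval -0.32 to -0.07, edgeR adjusted p = 0.048). P3H4 was called in 3 of 14 alternatives and in none of the 6 that left out a well, where the adjusted p of edgeR's quasi-likelihood test was 0.058 to 0.18. Without vitamin C replicate 3, its log2 fold change was -0.16 (edgeR adjusted p = 0.078). P3H3 had 21.8, 20.9 and 23.6 CPM with vitamin C and 24.5, 27.4 and 25.2 CPM in control wells, again with no overlap, and did not pass (log2 fold change -0.22, standard error 0.0748, edgeR adjusted p = 0.077). Without vitamin C replicate 3, the library that stood apart, P3H3 was called lower (log2 fold change -0.26, edgeR adjusted p = 0.029). Over the 9 genes tested, 4 lay lower and 1 higher with no overlap between groups, against 30.6% of all genes tested in either direction.

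P3H4 shares its start region with FKBP10, a collagen chaperone that regulates lysyl hydroxylation: the annotated starts are 76 bases apart on opposite strands of chromosome 17, and no exon base of P3H4 overlaps another gene. FKBP10 had 156, 178 and 164 CPM with vitamin C and 179, 164 and 173 CPM in control wells. The groups overlapped and the log2 fold change was -0.05 (95% confidence interval -0.17 to 0.07, edgeR adjusted p = 0.61), against -0.19 for P3H4. C1orf50 starts 185 bases from P3H1 on the opposite strand and had 3.58 to 3.86 CPM in vitamin C wells and 3.28 to 3.96 CPM in control wells. SLC22A4 starts 872 bases from the annotated start of P4HA2, with 1.91 to 2.72 CPM in vitamin C wells and 1.73 to 2.16 CPM in control wells. GPR162, which overlaps 2.48% of the P3H3 exon bases on the same strand, had 0.764 to 1.06 CPM in vitamin C wells and 1.04 to 1.54 CPM in control wells.

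**Figure D2:**
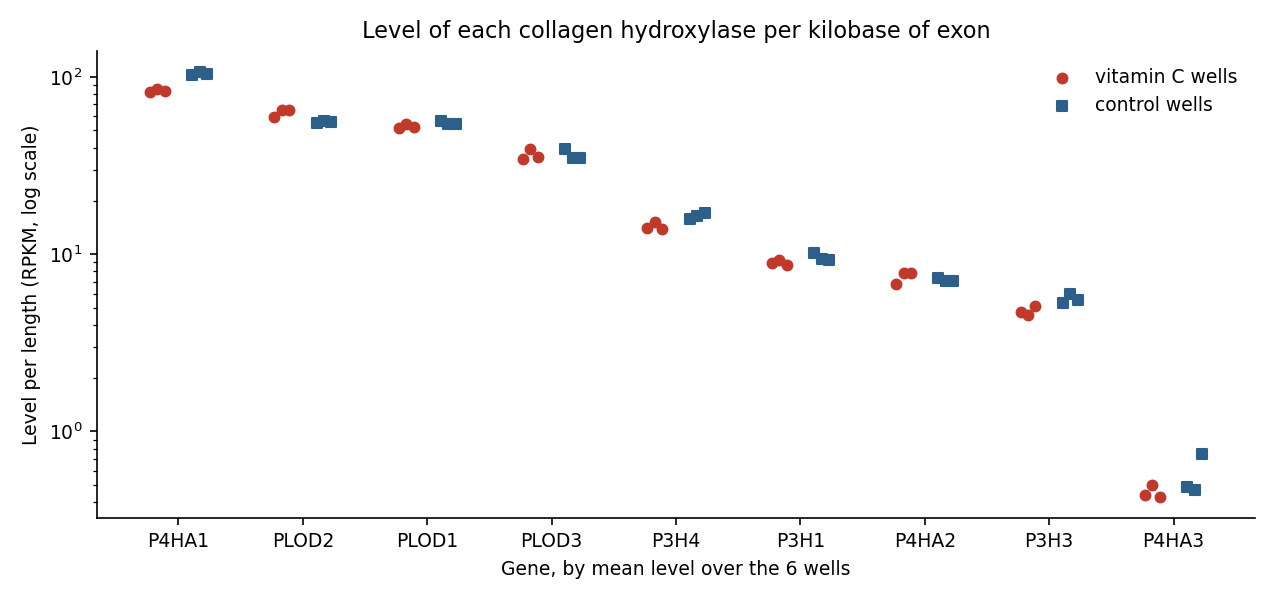
Level per length, as CPM divided by kilobases of exon (RPKM, log scale on the y axis), of the 9 collagen hydroxylase genes tested, ordered by their mean over the 6 wells. Red circles are vitamin C wells and blue squares control wells. P4HA1, the highest, was at 82.3 to 85.8 RPKM with vitamin C and 102 to 107 RPKM in control wells. P3H2, with 0 counts in some wells, is not drawn.

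To compare the genes with each other, CPM were divided by the length of the union of annotated exons. P4HA1 had the highest level per length, 83.9 ± 1.79 RPKM in vitamin C wells and 104.5 ± 2.30 RPKM in control wells (SD, n = 3 each). PLOD2 followed at 63.1 ± 2.90 RPKM with vitamin C and 55.6 ± 0.667 RPKM in control wells, and PLOD1 at 52.7 ± 1.27 RPKM with vitamin C and 55.1 ± 1.41 RPKM in control wells. PLOD3 was next, at 36.3 ± 2.41 RPKM with vitamin C and 36.3 ± 2.49 RPKM in control wells. P3H4 stood at 13.8 to 17.1 RPKM over the 6 wells, P3H1 at 8.70 to 10.1, P4HA2 at 6.82 to 7.83, P3H3 at 4.55 to 5.95 and P4HA3 at 0.429 to 0.741. PLOD2 and PLOD1 were the neighbours in this order whose levels overlapped: in control wells PLOD2 ran from 54.9 to 56.2 RPKM and PLOD1 from 54.0 to 56.7 RPKM. In vitamin C wells they stood apart, with 59.8 to 64.9 RPKM for PLOD2 and 51.6 to 54.1 RPKM for PLOD1. The order depends on the length used. With the longest coding transcript in place of all exons, PLOD2 ranked above P4HA1 and P3H1 above P3H4 by the mean over the 6 wells. PLOD2 was at 112 to 133 RPKM and P4HA1 at 89.5 to 116 RPKM, and these ranges overlapped in the control wells. By share of the family, P3H1 was ahead of P3H4 with vitamin C (42.3% against 40.1%). In control wells P3H4 was ahead (41.2% against 40.5%).

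Within the prolyl 4-hydroxylase subunits, P4HA1 made up 91.4 ± 0.469% of the summed level per length with vitamin C and 93.1 ± 0.267% in control wells (SD, n = 3 each). P4HA2 made up 8.14 ± 0.471% with vitamin C and 6.38 ± 0.270% in control wells. The sum of the 3 subunits was 91.8 ± 2.30 RPKM with vitamin C and 112 ± 2.15 RPKM in control wells, with no overlap. For the lysyl hydroxylases, the sum was 152 ± 6.05 RPKM with vitamin C and 147 ± 3.27 RPKM in control wells, and the wells overlapped, but the make-up differed. PLOD2 took 41.5 ± 0.824% with vitamin C and 37.8 ± 1.26% in control wells, while PLOD1 took 34.7 ± 0.595% with vitamin C and 37.5 ± 0.178% in control wells. The 4 genes of the prolyl 3-hydroxylase family summed to 28.1 ± 0.666 RPKM with vitamin C and 31.6 ± 0.339 RPKM in control wells, with no overlap, and the share of each of them overlapped between groups. These sums and shares are descriptions, with no test, and they depend on the length used. With the longest coding transcript as length, P4HA1 made up 82.2% with vitamin C and 85.6% in control wells. The share of P4HA2 was then 17.1% with vitamin C and 13.7% in control wells.

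The partners of the hydroxylases were read from the same test. Of 15 genes listed as procollagen chaperones and partners, 14 were tested, 1 was lower and 0 were higher by edgeR's quasi-likelihood test (2 lower and 0 higher at an unadjusted p under 0.05, and 2 lower and 0 higher by DESeq2 and by limma-voom). This is 7.14% called, against 11.2% of all genes tested. The median log2 fold change was -0.02, against 0.00 over all genes tested. The gene called was CRTAP, the helper of P3H1, with 294, 307 and 308 CPM in vitamin C wells and 336, 333 and 331 CPM in control wells (log2 fold change -0.14, standard error 0.0419, edgeR adjusted p = 0.0497). PPIB, the third member of that complex, had 575, 594 and 600.1 CPM with vitamin C, against 664, 630 and 646 CPM in control wells (log2 fold change -0.13, edgeR adjusted p = 0.058). For both, all vitamin C wells lay below all control wells. CRTAP was not called with library size or RLE scaling, nor without any 1 of the control wells or vitamin C replicates 1 or 2. Without vitamin C replicate 3, PPIB was called as well (log2 fold change -0.14, edgeR adjusted p = 0.026).

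P4HB, the subunit that pairs with P4HA1, had 295, 307 and 354 CPM with vitamin C, where replicate 3 was the highest, against 314, 310 and 311 CPM in control wells. Its log2 fold change was 0.03 (95% confidence interval -0.10 to 0.16, edgeR adjusted p = 0.80). SERPINH1, the collagen chaperone HSP47, had 141 to 151 CPM with vitamin C and 146 to 152 CPM in control wells, and COLGALT1, which adds galactose to hydroxylysine, had 105 to 113 CPM with vitamin C and 103 to 109 CPM in control wells. Their log2 fold changes were -0.03 (95% confidence interval -0.13 to 0.07) and 0.05 (95% confidence interval -0.06 to 0.15). The ratio of P4HA1 to P4HB in CPM was 0.819 ± 0.0762 with vitamin C and 1.04 ± 0.0288 in control wells, and that of PLOD2 to FKBP10 was 2.91 ± 0.111 with vitamin C and 2.47 ± 0.140 in control wells (SD, n = 3 each), neither with overlap. These ratios carry the lengths of the genes, so only their difference between groups can be read, and they were chosen after the values were seen.

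**Figure D3:**
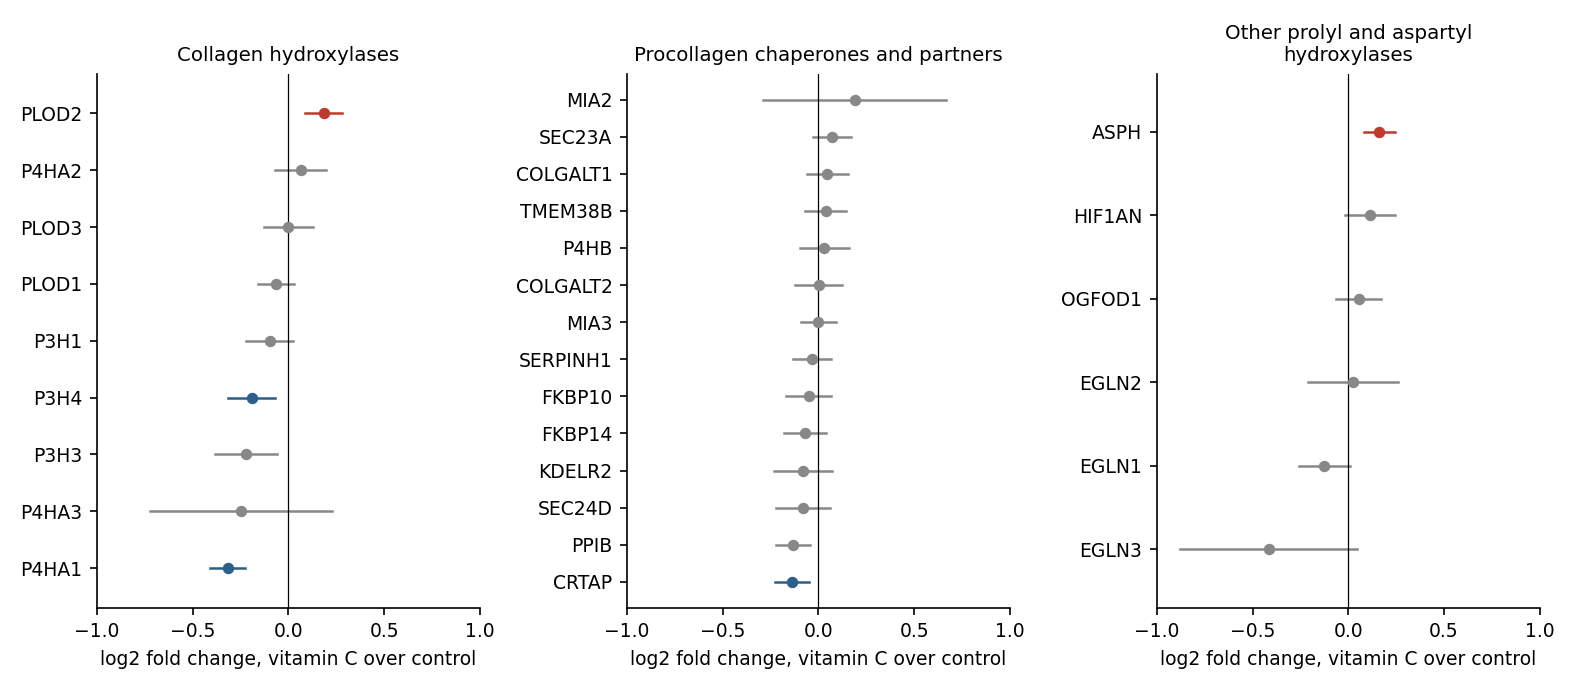
Fold change (log2, vitamin C wells over control wells) and its 95% confidence interval as a bar for the collagen hydroxylases, the procollagen chaperones and partners, and the other prolyl and aspartyl hydroxylases tested. Red is higher, blue lower and gray not called at an adjusted p under 0.05. P4HA1 lies at -0.32 and PLOD2 at 0.18, while P4HB lies at 0.03.

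Other hydroxylases of the same enzyme class that act on proteins besides collagen were also counted. Of 8 listed, 6 were tested and 1 was higher, or 16.7% called against 11.2% of all genes tested. This was ASPH, the aspartyl hydroxylase of the endoplasmic reticulum, with 1647, 1668 and 1632 CPM in vitamin C wells and 1450, 1474 and 1499 CPM in control wells (log2 fold change 0.16, standard error 0.0382, edgeR adjusted p = 0.015). It was not called without any 1 of the control wells (log2 fold change 0.15 to 0.18). The HIF prolyl hydroxylase EGLN1 had 391, 432 and 356 CPM with vitamin C and 409, 440.2 and 437 CPM in control wells, and did not pass (edgeR adjusted p = 0.23). EGLN2 and EGLN3 had log2 fold changes of 0.02 and -0.42 (edgeR adjusted p = 0.93 and 0.25), and P4HTM, a transmembrane prolyl hydroxylase, had 1 to 6 counts with vitamin C and 4 to 11 counts in control wells. EGLN3 had 1.96, 2.04 and 3.48 CPM with vitamin C and 3.29, 3.50 and 2.91 CPM in control wells, and without vitamin C replicate 3 it was called lower (log2 fold change -0.70, edgeR adjusted p = 0.019).

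Among the substrates, 31 of 44 collagen chains were tested, 7 were higher and 5 lower, or 38.7% called against 11.2% of all genes tested, and the median log2 fold change was -0.03. The chains of basement membrane collagen COL4A1 and COL4A2 fell by 22.9% and 18.8%. COL4A1 had 296, 304 and 290.3 CPM with vitamin C, against 404, 374 and 375 CPM in control wells (log2 fold change -0.37, standard error 0.0460, edgeR adjusted p = 0.00016). COL4A2 averaged 509.7 ± 7.95 CPM with vitamin C and 628 ± 32.7 CPM in control wells (SD, n = 3 each), again with no overlap. The ratio of P4HA1 to COL4A1 in CPM was 0.875 ± 0.0156 with vitamin C and 0.843 ± 0.0536 in control wells, and here the wells overlapped.

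The minor basement membrane chains COL4A5 and COL4A6 were also lower. COL4A5 averaged 5.74 CPM with vitamin C and 12.3 CPM in control wells, and COL4A6 averaged 1.35 CPM with vitamin C and 4.80 CPM in control wells (log2 fold changes -1.11 and -1.85, edgeR adjusted p = 9.4e-06 and 2.3e-05). The fifth chain that was lower was the fibrillar chain COL5A3, with 0.942 to 1.58 CPM in vitamin C wells and 2.91 to 3.28 CPM in control wells (log2 fold change -1.21, edgeR adjusted p = 0.0030), named after its value was seen. The chains that were higher included COL11A2, with 23.1 CPM in vitamin C wells and 11.5 CPM in control wells, and COL19A1, with 152 CPM in vitamin C wells and 109 CPM in control wells (log2 fold changes 1.01 and 0.48). COL8A1 had 28.7 CPM with vitamin C and 18.0 CPM in control wells, and COL6A3 had 2.94 CPM with vitamin C and 1.49 CPM in control wells (log2 fold changes 0.66 and 1.02). Without control replicate 1 or control replicate 2, 4 chains were higher and 5 lower, and COL3A1, COL9A2 and COL14A1 lost their calls. COL9A2 also lost its call without vitamin C replicate 1 or 2 (edgeR adjusted p = 0.052 and 0.058). COL14A1 lost its call whichever 1 well was left out, and with upper quartile scaling or DESeq2. Without vitamin C replicate 3, the log2 fold change of COL14A1 was 0.37 (edgeR adjusted p = 0.078). The chains of the major fibrillar collagens were scarce. COL1A1 and COL1A2 had 7 to 16 and 3 to 23 counts in vitamin C wells and 5 to 21 and 5 to 20 counts in control wells, and COL1A2 was under the filter. COL3A1 was higher, with 3.11 ± 0.497 CPM with vitamin C and 1.83 ± 0.153 CPM in control wells (log2 fold change 0.76, edgeR adjusted p = 0.019), a call lost without control replicate 1 or 2 (edgeR adjusted p = 0.063 and 0.077). These fibrillar chains are also among the fibroblast markers, whose sum was higher in the vitamin C wells.

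**Figure D4:**
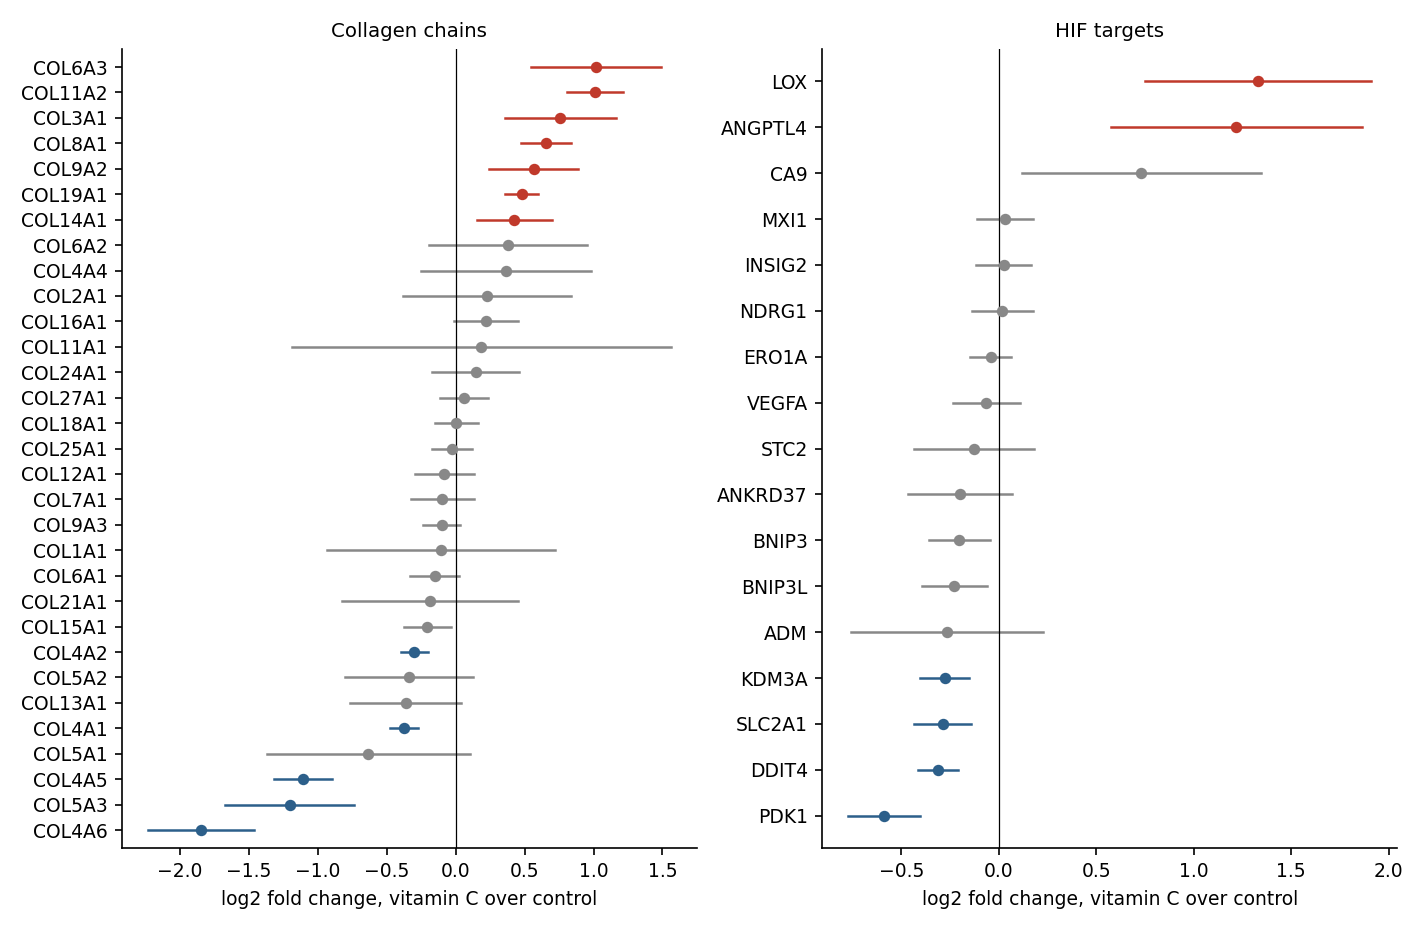
Fold change (log2, vitamin C wells over control wells) and its 95% confidence interval as a bar for the collagen chains and the HIF targets tested. Red is higher, blue lower and gray not called at an adjusted p under 0.05. COL4A1 lies at -0.37, COL11A2 at 1.01 and PDK1 at -0.59.

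Because several hydroxylase genes are induced by HIF in other cells, 18 HIF targets outside the family were read from the same test. Of 17 tested, 2 were higher and 4 lower, or 35.3% called against 11.2% of all genes tested, and the median log2 fold change was -0.13. PDK1, a pyruvate dehydrogenase kinase, had 48.8, 62.3 and 49.7 CPM with vitamin C, against 75.0, 85.2 and 82.9 CPM in control wells (log2 fold change -0.59, standard error 0.0854, edgeR adjusted p = 0.00063). The stress-induced mTOR inhibitor DDIT4, the histone demethylase KDM3A and the glucose transporter SLC2A1 were lower as well, with log2 fold changes of -0.31, -0.28 and -0.29. The 11 HIF targets that did not pass had log2 fold changes from -0.26 (ADM) to 0.73 (CA9), with VEGFA at -0.06 and NDRG1 at 0.02. The genes that were higher had few reads: LOX, the enzyme that crosslinks hydroxylated collagen, averaged 2.54 ± 0.713 CPM with vitamin C and 1.08 ± 0.311 CPM in control wells (SD, n = 3 each, log2 fold change 1.33, edgeR adjusted p = 0.0063). ANGPTL4, an inhibitor of lipoprotein lipase, averaged 2.04 ± 0.553 CPM with vitamin C and 0.919 ± 0.314 CPM in control wells (log2 fold change 1.22). ANGPTL4 was not called without control replicate 1, control replicate 3 or vitamin C replicate 2 (log2 fold changes 0.91, 1.24 and 0.95). KDM3A lost its call without control replicate 2, and SLC2A1 without control replicate 1, control replicate 3 or vitamin C replicate 1, while PDK1, DDIT4 and LOX kept theirs without any 1 well. Without vitamin C replicate 2, BNIP3 and BNIP3L were also called lower. With all wells, both were called lower with no filter on low counts and with the replicate block, and BNIP3L also by DESeq2. Of the 4 hydroxylase genes known as HIF targets, P4HA1 was lower, PLOD2 was higher, and P4HA2 and PLOD1 did not pass.

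Over the 6 wells, the protein-coding genes most like P4HA1 among 12653 compared were FLRT2, MGAT4A and ASIC3, with a Pearson correlation of log2 CPM of 0.997, 0.996 and 0.995. FLRT2 had 95.1, 97.2 and 94.9 CPM with vitamin C and 117, 122 and 121 CPM in control wells. ASIC3 had few reads, with 4, 6 and 3 counts in vitamin C wells and 23, 22 and 11 counts in control wells. Those most like PLOD2 were ZNF300, DEF6 and PANX1, with correlations of 0.992, 0.989 and 0.989. PANX1, a membrane channel, had 80.6, 89.2 and 89.1 CPM with vitamin C and 76.3, 76.1 and 76.4 CPM in control wells. With 6 wells in 2 groups, these correlations mostly describe the difference between groups.

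**Figure D5:**
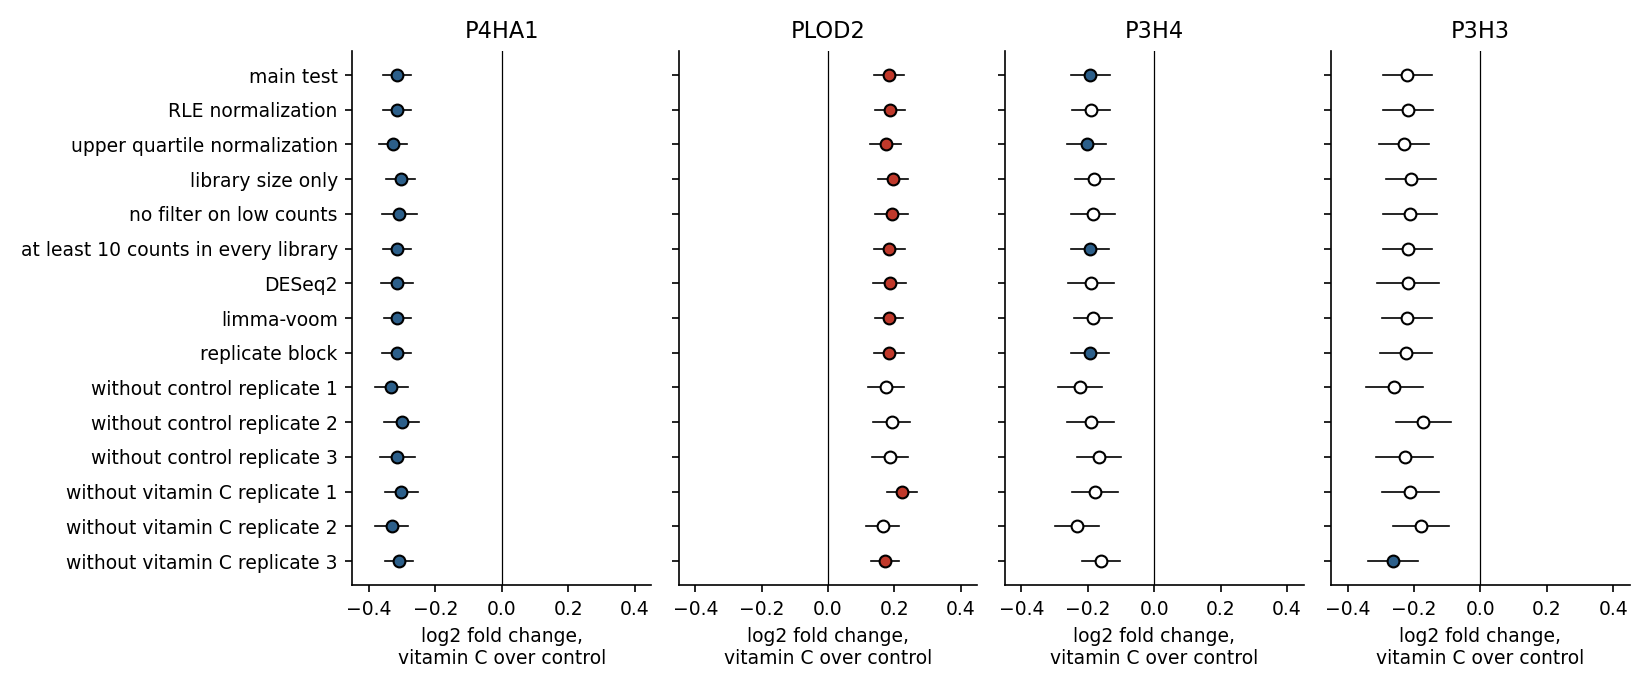
Fold change (log2, vitamin C wells over control wells) of P4HA1, PLOD2, P3H4 and P3H3 under the main analysis and 14 alternatives, with bars of 1 standard error, filled where the gene was called and open where it was not. Every alternative lies between -0.33 and -0.30 for P4HA1 and between 0.17 and 0.22 for PLOD2.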

How the data were processed

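RNA was taken from 6 wells of A2058 cells. Ribosome-depleted libraries were sequenced, and the values deposited by the authors are raw counts of reads per gene. HTSeq is the counter in the study's methods, and the submitters' processing notes list STAR, hg38, Trim Galore and CASAVA 1.4. The annotation named in the study's methods is older than hg38, and the strand setting of the counting was not given in the sources used here. Reads of overlapping genes on opposite strands therefore cannot be told apart. Of 60675 identifiers, 57055 were in GENCODE 29, used for symbols, exons and coordinates. No column of per-sample values was left out.

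The deposited counts were tested with edgeR 4.0.16 in R 4.3.3 (filterByExpr, TMM scaling, quasi-likelihood test of vitamin C over control, Benjamini-Hochberg adjustment over 16353 genes, called at an adjusted p under 0.05). The procedure was also tested on simulated data. CPM used the TMM library sizes, and RPKM the union of exons. Replicates of a group differed by more than counting noise (chi-square per degree of freedom 2.59 to 9.64). Start regions were RefSeq windows of GRCh38.p14. Alternatives were RLE, upper quartile and library size scaling, no filter, at least 10 counts in every library, DESeq2 1.42.0, limma-voom (limma 3.58.1), a replicate block, the longest coding transcript as length, and each well left out.

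Named were all members, fixed partners and fibrillar chains, EGLN1 to EGLN3 and P4HTM, called list genes by smallest p (up to 4 or 5 in a direction), neighbours within 1000 bases or with shared exons, and the 3 genes most like the top member in each direction. The members and lists were chosen with earlier results of these data known. The values of a gene on the leukocyte marker list are not reported here.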

Additional observations from a re-analysis of the deposited data

How the results depend on the processing

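P4HA1 was called lower in all 14 alternatives (adjusted p 6.3e-09 to 0.0047 over edgeR, DESeq2 and limma-voom). PLOD2 was called in 10 and P3H4 in 3 of them. Leaving out 1 well gave 1 to 3 hydroxylase genes called (3 with all wells), 964 to 2095 of all genes (1829 with all wells), 0 to 2 partners and 0 to 2 other hydroxylases (1 each with all wells). These fits have fewer samples. The 964 and the 977 calls came without control replicates 3 and 2, and 1092 and 1136 without control replicate 1 and vitamin C replicate 2. The single call of hydroxylase genes without any control well or vitamin C replicate 2 was P4HA1.

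Of the partners, 0 were called with RLE scaling, library size scaling, no filter or the replicate block, and 2 with upper quartile scaling, DESeq2 or limma-voom, against 1 in the main edgeR test (2 at an unadjusted p under 0.05). The cause was not tested. Over the alternatives, 9 to 13 collagen chains (12 in the main test) and 4 to 8 HIF targets (6) were called. With the longest coding transcript as length, 6 of 10 ranks and 2 of 3 family leaders stayed the same, by the mean over the 6 wells. The leader that changed was P3H4, which P3H1 replaced, though P3H4 kept the larger share in control wells (41.2% against 40.5%). PLOD3 had log2 fold changes of -0.06 to 0.06 over the alternatives and was never called. No scaling moved the median of all genes by more than 0.012 on the log2 scale.

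Whether replicate numbers pair the wells could not be told from the values. Deviations of same-numbered wells correlated at 0.12, -0.02 and 0.09 for replicates 1, 2 and 3, against -0.18 to 0.11 for other pairs. Vitamin C replicates 1 and 3 were closest to the control of their own number, and vitamin C replicate 2 to control replicate 1. With the replicate block, 1913 genes and 3 hydroxylase genes were called. Depth limits P4HA3, with 36 to 81 counts a library, and P3H2, with at most 3.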
